A study of Mus musculus with 6 samples.

Results

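The genes described here are the cell-surface receptors of Wnt signalling, the frizzled genes Fzd1 to Fzd8 and the co-receptor genes Lrp5 and Lrp6, in the fetal mouse testis. They were chosen by gene symbol from the deposited count table, which held all 10 of them among 42747 rows. All 10 passed the filter on low counts, as did 18383 rows in all. RNA came from whole testes of mouse embryos at E16.5, with 3 animals labelled cKO and 3 labelled WT. The title of the series names CK1α, a casein kinase whose gene is Csnk1a1, and Sertoli cells, which nurse the germ cells inside the cords. On that basis cKO is taken here to mean conditional loss of Csnk1a1 in Sertoli cells. Alleles, Cre driver, strain and litters are not stated in the labels, so what the WT animals share with the cKO animals is not known.

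Wnt proteins bind the cysteine-rich outer domain of a frizzled receptor, which crosses the membrane several times, and at the same time LRP5 or LRP6, which crosses it once. In the canonical branch the joined receptors recruit Dishevelled and Axin, the LRP tail is phosphorylated by GSK3 and CK1 kinases, and β-catenin escapes the destruction complex in which CK1α primes it for decay. Frizzled receptors also act without LRP5 or LRP6, in planar cell polarity and calcium signalling. By sequence the frizzled proteins form small groups, among them FZD1 with FZD2 and FZD7, FZD5 with FZD8, and FZD3 with FZD6, and the genes are described in those groups.

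None of the 10 genes was called between cKO and WT by edgeR at a Benjamini-Hochberg adjusted p under 0.05, where 3.35% of all tested genes were called (1.50% higher and 1.84% lower in cKO). DESeq2 called 1 of the 10, Fzd1, higher, and limma-voom called none. Over all genes DESeq2 called more than edgeR, 498 higher and 539 lower against 276 and 339, and limma-voom called 268 and 335. At an unadjusted p under 0.05, 5 of the 10 passed, against 15.8% of all tested genes. These were Fzd1, Fzd2, Fzd6 and Fzd7 with positive and Fzd3 with negative log2 fold changes. Without cKO library 3, WT library 1 or WT library 3, 2 of the 10 passed. The share of all tested genes at that threshold in those fits is not given here. Adjusted calls by edgeR over all genes also fell there, to 134 higher and 170 lower, 105 and 218, and 105 and 167. In 4 of the 10 genes the cKO libraries did not overlap the WT libraries, against 21.6% of all tested genes. The median log2 fold change of the 10 was 0.16, against 0.00 over all tested genes, and 7 of the 10 were positive. The estimates ran from -0.48 for Fzd3 to 0.55 for Fzd1, a range from 1.40-fold lower to 1.47-fold higher.

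**Figure D1:**
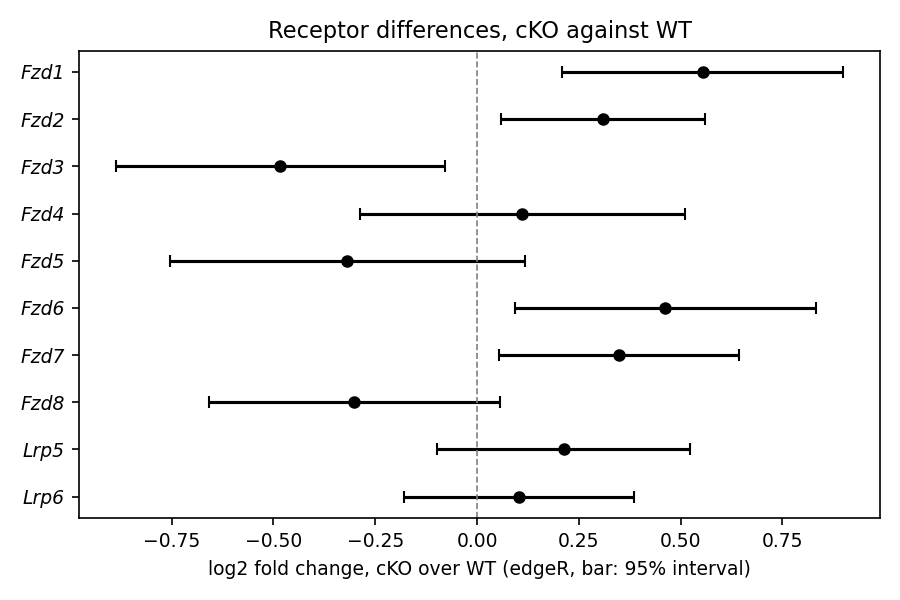
Log2 fold change of each receptor gene, cKO over WT, from edgeR's fit (point) with its 95% confidence interval (bar). The intervals of Fzd1, Fzd2, Fzd6 and Fzd7 lie above 0 and that of Fzd3 lies below 0, before any adjustment for the number of genes tested; the estimates run from -0.48 to 0.55.

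Library totals ran from 15092619 to 17431546 counts. The 10 genes together took 11822 to 13944 of those counts in cKO and 10097 to 11827 in WT, and the rarest of them, Fzd5, had 200 to 226 counts in cKO and 222 to 332 in WT. Csnk1a1, the gene named by the study, stood at 395, 404 and 377 CPM (counts scaled to 1e6 per library, with TMM factors) in cKO libraries 1, 2 and 3, against 370, 395 and 347 CPM in WT libraries 1, 2 and 3 (log2 fold change 0.08, edgeR adjusted p = 0.798). Its whole-gene count in a whole organ does not check the labels, since the deleted part is not stated. Markers of testis cell types were present in both groups, and none of the listed Sertoli or Leydig cell markers was at 0 counts in any library. The Sertoli list had 10 of 12 genes lower in cKO and none higher by edgeR (11 lower by DESeq2, by limma-voom and at unadjusted p below 0.05), and its summed level was 841 to 1243 CPM in cKO and 2328 to 2991 CPM in WT. Of those 10 edgeR calls, that of Dmrt1 held in 10 of 17 other ways of fitting, Aard in 12 and Sox9 in 15. The rest held in all 17. In whole testes, fewer cells of a type and less RNA per cell cannot be told apart, and the part of cell composition in the receptor values was not tested.

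The abundance of the receptors, compared per gene length as deposited FPKM (fragments per length of exon and per depth), fell into an upper and a lower set. In cKO the order was Fzd2 (29.2 ± 2.18 FPKM), Fzd1 (21.3 ± 1.50), Fzd7 (20.5 ± 2.75), Lrp5 (18.6 ± 2.73), Lrp6 (16.9 ± 1.31), then Fzd6 (5.99 ± 0.374), Fzd4 (5.48 ± 1.20), Fzd3 (5.41 ± 1.21), Fzd8 (5.38 ± 0.560) and Fzd5 (1.98 ± 0.284; SD, n = 3 throughout). In WT the order was Fzd2 (23.5 ± 1.32 FPKM), Fzd7 (16.0 ± 1.55), Lrp5 (16.0 ± 1.96), Lrp6 (15.7 ± 1.96), Fzd1 (14.5 ± 3.33), then Fzd3 (7.53 ± 1.06), Fzd8 (6.61 ± 0.735), Fzd4 (5.06 ± 0.132), Fzd6 (4.33 ± 0.736) and Fzd5 (2.46 ± 0.449; SD, n = 3 throughout, as for every ± given). Fzd2 stood apart from its neighbour at the top in both groups. The 4 genes after it overlapped their neighbours in both groups, so their order is not resolved. The gap below those 5 genes held in both groups. In the lower set Fzd6, Fzd4, Fzd3 and Fzd8 overlapped in cKO, whereas in WT Fzd8, Fzd4, Fzd6 and Fzd5 were each clear of the next. By mean FPKM Fzd1 held position 2 and Fzd6 position 6 in cKO, against positions 5 and 9 in WT. Fzd1 overlapped a neighbour in both groups and Fzd6 did so in cKO. Their cKO positions and the WT position of Fzd1 are therefore not resolved. Set among all tested genes by WT level, Fzd2 lay at the 85.1 percentile, Fzd7, Lrp5, Lrp6 and Fzd1 between the 74.0 and 76.5 percentiles, and Fzd5 at the 34.6 percentile.

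**Figure D2:**
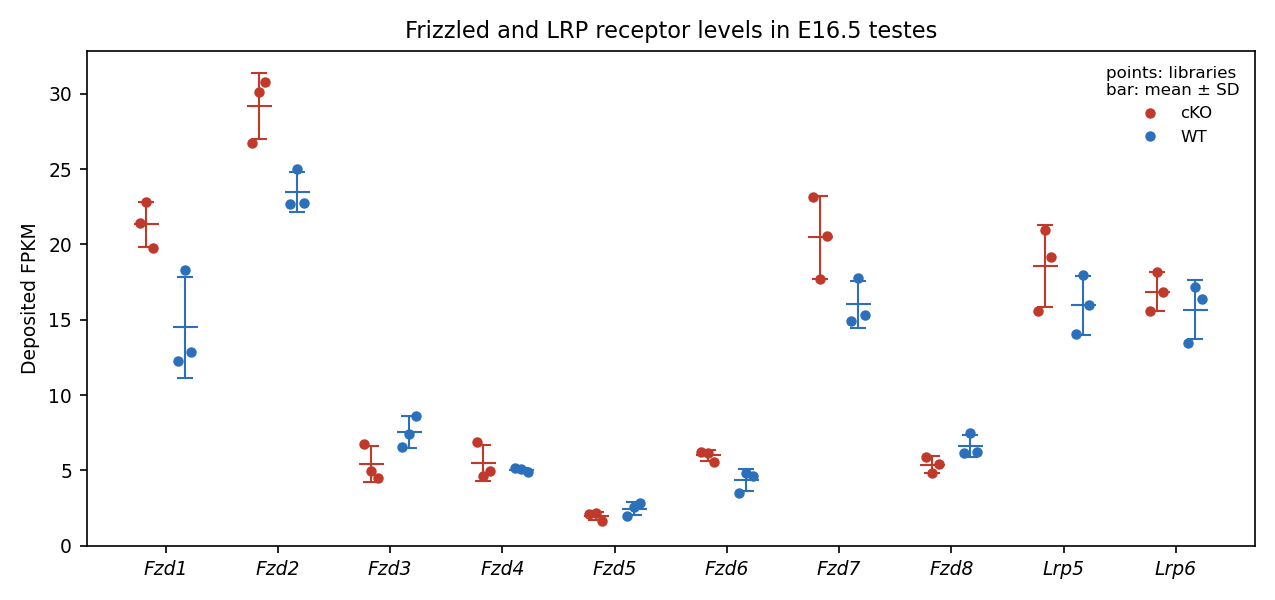
Deposited FPKM of the 10 receptor genes in each library (points), with the mean and SD over the 3 libraries of a group (bars), cKO left of WT. Fzd2, Fzd1, Fzd7, Lrp5 and Lrp6 lie above 12 FPKM in every library and the other 5 genes below 9 FPKM.

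The group of Fzd1, Fzd2 and Fzd7 supplied most of the frizzled transcript level, and all 3 had positive estimates, none of them called by edgeR. Fzd1 lay nearest to a call. It had 21.4, 22.8 and 19.8 FPKM in cKO libraries 1, 2 and 3, against 12.3, 18.3 and 12.9 FPKM in WT libraries 1, 2 and 3. Every cKO library was above every WT library, and WT library 2 stood well above the other two WT libraries. Its log2 fold change came to 0.55 (SE 0.157, 95% confidence interval 0.21 to 0.90), with an edgeR adjusted p of 0.0941. It passed as higher in 4 of the 17 other ways of fitting, among them DESeq2 (adjusted p = 0.0303) and the edgeR fit without WT library 2 (log2 fold change 0.76, adjusted p = 0.0258), and its estimate ran from 0.45 to 0.76 over those fits.

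Fzd2, a receptor best known for WNT5A, had 26.7, 30.1 and 30.8 FPKM in cKO against 22.7, 25.0 and 22.8 FPKM in WT. The groups did not overlap, and the difference was smaller than for Fzd1 (log2 fold change 0.31, SE 0.114, edgeR adjusted p = 0.204). Fzd7, a canonical receptor of many stem and progenitor cells, had 23.2, 17.7 and 20.6 FPKM in cKO against 14.9, 17.8 and 15.4 FPKM in WT. Only cKO library 2 and WT library 2 overlapped, and by a small margin (0.35, SE 0.134, edgeR adjusted p = 0.227). Summed over the 3 genes, the level was 71.3, 70.6 and 71.1 FPKM in cKO and 49.9, 61.1 and 51.0 FPKM in WT. The sum was nearly equal in the 3 cKO libraries although the single genes were not, with Fzd7 lowest where Fzd1 was highest. No test was made of this sum, since the grouping was written down with the values known.

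In the deposited annotation Fzd1, Fzd2, Fzd7 and Fzd8 each consist of a single exon, the span on the chromosome being equal to the exon length. For Fzd1 this is 4197 bases on the minus strand of chromosome 5 (1976097 to 1980293), and for Fzd7 it is 4532 bases on the plus strand of chromosome 1 (61792437 to 61796968), in the C57BL/6NJ coordinates that the gene identifiers of the files carry. The stretch of 250 bases upstream of the RefSeq start is shown for these 2 members, because they belong to one sequence group, had positive log2 fold changes and differ in promoter makeup. Both come from GRCm38.p6, so their positions are not in the C57BL/6NJ coordinates given above. They lie at chr5:4758217-4758466 on the minus strand for Fzd1 and chr1:59481897-59482146 on the plus strand for Fzd7, and are written 5′ to 3′. Capitals mark GGGCGG (the GC box), TATAAA, and CTTTG followed by AA, AT, TA or TT (letters of the TCF/LEF type), on either strand.
Fzd1: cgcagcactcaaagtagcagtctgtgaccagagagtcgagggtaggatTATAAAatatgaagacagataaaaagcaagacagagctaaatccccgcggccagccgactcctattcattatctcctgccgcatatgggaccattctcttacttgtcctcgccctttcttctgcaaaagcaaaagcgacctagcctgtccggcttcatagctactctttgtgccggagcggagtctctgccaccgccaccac
Fzd7: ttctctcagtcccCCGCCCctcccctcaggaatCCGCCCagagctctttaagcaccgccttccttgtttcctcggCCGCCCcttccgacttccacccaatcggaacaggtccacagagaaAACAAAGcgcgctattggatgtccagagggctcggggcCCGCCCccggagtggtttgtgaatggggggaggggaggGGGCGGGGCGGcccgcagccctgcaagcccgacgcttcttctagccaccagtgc
The Fzd1 window held no GGGCGG, 1 TATAAA whose letters lie 202 to 197 bases upstream of the start, and no TCF/LEF-type letters. The Fzd7 window held 6 GGGCGG matches, 2 of which share a base, no TATAAA and 1 TCF/LEF-type match, CTTTGTT on the opposite strand, 130 to 124 bases upstream. Its GC content was 65.2%, against 51.2% for Fzd1 and a median of 52.4% over all 32851 RefSeq windows of this length. GGGCGG occurs in 32.7% of those windows, TATAAA in 12.4% and the TCF/LEF-type letters in 14.8%. Of the other members, Fzd4 and Fzd5 matched a window in the same table, with 7 and 9 GGGCGG matches and neither of the other motifs. Fzd2, Fzd3, Fzd6, Fzd8, Lrp5 and Lrp6 are not shown. These letters are a description and were not set against any binding data.

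Fzd5 and Fzd8, close relatives that act in the canonical branch, both had negative estimates and neither was called. Fzd8 had 5.91, 4.79 and 5.44 FPKM in cKO against 6.18, 7.46 and 6.19 FPKM in WT, all cKO libraries lying below all WT libraries. This came to a log2 fold change of -0.30 (SE 0.162, 95% confidence interval -0.66 to 0.06), with an edgeR adjusted p of 0.412. Fzd5 had 2.12, 2.16 and 1.65 FPKM in cKO against 1.96, 2.56 and 2.84 FPKM in WT, and the groups overlapped through WT library 1 (-0.32, SE 0.198, edgeR adjusted p = 0.486). An unclassified transcript on the opposite strand overlaps the Fzd5 gene by 1512 bases, but it had at most 2 counts in any library.

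Fzd3 and Fzd6, the pair best known for planar cell polarity in hair follicles, axon tracts and the inner ear, had estimates of opposite sign. Fzd3 had 6.78, 4.95 and 4.49 FPKM in cKO against 6.54, 7.40 and 8.64 FPKM in WT. The groups overlapped only through cKO library 1, which lay above WT library 1 (log2 fold change -0.48, SE 0.184, edgeR adjusted p = 0.224). Fzd6 had 6.24, 6.18 and 5.56 FPKM in cKO against 3.49, 4.86 and 4.66 FPKM in WT, with every cKO library above every WT library (0.46, SE 0.168, edgeR adjusted p = 0.199). The ratio of Fzd6 to Fzd3 FPKM was 0.920, 1.25 and 1.24 in cKO and 0.534, 0.656 and 0.539 in WT. The pair was singled out after its values were seen, so the difference between the 2 genes was not tested. Their summed level did not separate the groups, at 10.06 to 13.01 FPKM in cKO and 10.03 to 13.3 FPKM in WT.

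Fzd4, which binds both Wnt proteins and the unrelated ligand Norrin, had 6.85, 4.62 and 4.97 FPKM in cKO against 5.18, 5.07 and 4.92 FPKM in WT. The WT libraries lay within a narrow band and cKO library 1 alone stood above it (log2 fold change 0.11, SE 0.181, 95% confidence interval -0.29 to 0.51; edgeR adjusted p = 0.824). Without that library the estimate turned to -0.08, so its direction rests on 1 library.

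Within the frizzled pool, the shares of Fzd3, Fzd5 and Fzd8 were smaller in every cKO library than in any WT library, and those of Fzd1 and Fzd6 larger. The 8 frizzled genes summed to 99.2, 93.3 and 93.2 FPKM in cKO and 73.2, 88.5 and 78.2 FPKM in WT. Fzd1, Fzd2 and Fzd7 together held 74.6 ± 2.38% of that sum in cKO and 67.5 ± 2.04% in WT (SD, n = 3 each). Fzd8 held 5.95, 5.14 and 5.83% in cKO against 8.44, 8.43 and 7.92% in WT. Fzd3 held 6.83, 5.31 and 4.82% in cKO against 8.93, 8.37 and 11.1% in WT, and Fzd5 held 1.77 to 2.31% in cKO against 2.68 to 3.63% in WT. By contrast, the shares of Fzd2, Fzd7 and Fzd4 overlapped. Shares of one sum are not independent, so a larger share of one gene lowers the others, and no test was made.

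**Figure D3:**
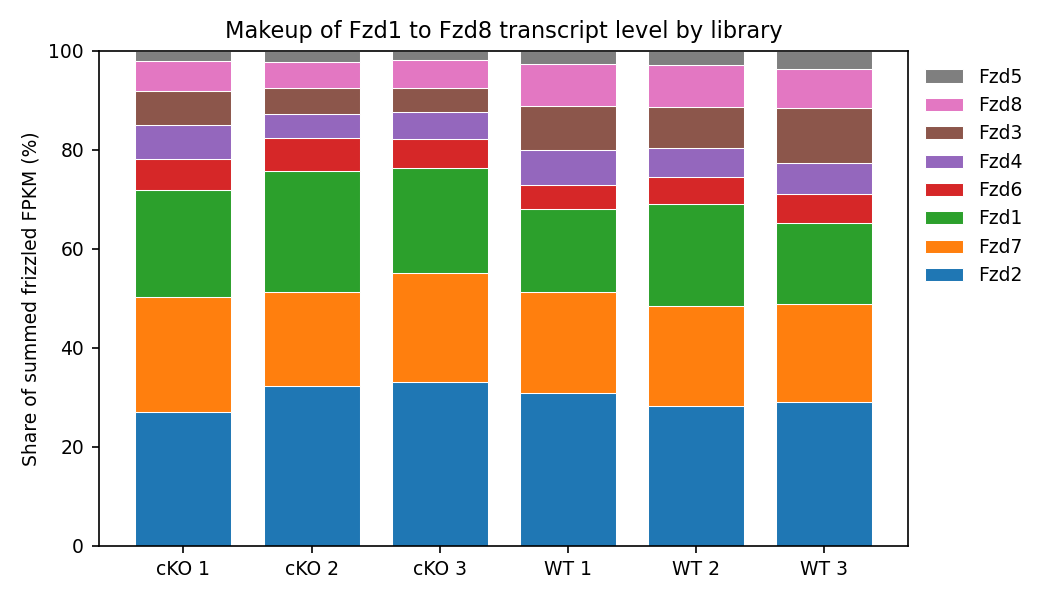
Share of each frizzled gene in the summed FPKM of Fzd1 to Fzd8, in percent, for the 3 cKO libraries and the 3 WT libraries. Fzd2, Fzd7 and Fzd1, the lowest segments of each bar, hold 71.9 to 76.3% in cKO and 65.2 to 69.1% in WT, and the share of Fzd8 is smaller in every cKO library.

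The co-receptors Lrp5 and Lrp6, which carry the phosphorylated tail that binds Axin, were closely matched in level. Lrp5 had 15.6, 21.0 and 19.2 FPKM in cKO against 14.0, 17.9 and 16.0 FPKM in WT (log2 fold change 0.21, SE 0.141, 95% confidence interval -0.10 to 0.52; edgeR adjusted p = 0.518). Lrp6 had 15.6, 18.2 and 16.8 FPKM in cKO against 13.4, 17.2 and 16.4 FPKM in WT (0.10, SE 0.128, 95% confidence interval -0.18 to 0.39; edgeR adjusted p = 0.758). Both sets overlapped, and both genes were lowest in library 1 and highest in library 2 of each group. Lrp5 made up 52.3 ± 1.95% of the summed FPKM of both genes in cKO and 50.5 ± 1.03% in WT (SD, n = 3 each). Of all 10 members, Lrp6 had the estimate nearest to 0, and its interval reaches from -0.18 to 0.39 on the log2 scale.

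The WT libraries differed in ways that several receptors shared. WT library 2 had the highest CPM of the WT libraries for 7 of the 10 members and WT library 1 the lowest for 7. Among the cKO libraries 1, 2 and 3 the members were more evenly spread, with 5, 4 and 1 highest and 3, 3 and 4 lowest. The summed level of 8 interstitial progenitor markers, of which Col3a1 (5336 ± 1295 CPM in cKO against 3629 ± 860 CPM in WT) and Dlk1 (1444 ± 234 CPM in cKO, 909 ± 233 CPM in WT) were the most abundant, was 7873, 10500.0 and 9988 CPM in cKO libraries 1, 2 and 3 and 5282, 7959 and 6484 CPM in WT libraries 1, 2 and 3. WT library 2 was the highest of the WT libraries for this sum, for the Sertoli sum and for Fzd1 (90.6, 96.1 and 83.5 CPM in cKO and 52.4, 77.3 and 54.4 CPM in WT). None of the 8 markers was called by edgeR or limma-voom, 3 were higher by DESeq2, and 7 of 8 had a positive fold change at an unadjusted p under 0.05. None was at 0 counts. The fetal Leydig list summed to 5484 to 7305 CPM in cKO and 4115 to 4832 CPM in WT, with 1 of 8 genes, Fdx1, higher and none lower by edgeR (4 higher by DESeq2, 2 by limma-voom, 5 higher and none lower at unadjusted p below 0.05). The edgeR call of Fdx1 was lost without WT library 1 (adjusted p = 0.0509) or WT library 3 (0.0576). Fdx1 was also not called with limma-trend on log2(FPKM + 0.1) or log2(FPKM + 1) (adjusted p = 0.0524 and 0.0522). Whether other genes of that list were called in those fits is not given here. Of its most abundant genes, Cyp17a1 (2133 ± 556 CPM in cKO against 1788 ± 110 CPM in WT) was called by none of the 3 tools, whereas Cyp11a1 (1585 ± 106 CPM in cKO, 1050.0 ± 165 CPM in WT) was called higher by DESeq2 (adjusted p = 0.00142) and limma-voom (0.0451) but not by edgeR (0.0636). In the Sertoli list Amh had 168 ± 100.3 CPM in cKO against 895 ± 239 CPM in WT and was lower, and Gata4 had 314 ± 25.0 CPM in cKO, against 439 ± 25.5 CPM in WT, and was called lower by DESeq2 (adjusted p = 0.00567) and limma-voom (0.0459) but not by edgeR (0.0579).

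Of the other marker lists, the pregranulosa list, of ovarian supporting cells, had 4 of 8 genes (Wnt4, Nr0b1, Foxl2 and Runx1) higher and none lower by edgeR, with sums of 318 to 380 CPM in cKO and 114 to 142 CPM in WT, led by Wnt4 and Nr0b1 (30.1 ± 3.39 CPM in cKO and 13.5 ± 2.89 CPM in WT). Wnt4 made up most of that sum, with 238 CPM in cKO and 72.7 CPM in WT. It is counted again among the ligands below, since the marker and pathway lists share some genes. The mesonephros list had 1 of 7 higher and none lower by edgeR, Emx2 (29.1 ± 5.88 CPM in cKO and 13.95 ± 1.29 CPM in WT), with Pax8 next in level. Of 7 peritubular markers 1, Des, was higher and 1, Ptch1, lower by edgeR, with sums of 758 to 860 CPM in cKO and 943 to 1116 CPM in WT, and Acta2 and Ptch1 were the most abundant. Of 8 endothelial markers 1, Kdr, was higher by edgeR (164 ± 13.3 CPM in cKO and 104 ± 12.9 CPM in WT), while Cdh5, the most abundant, was called by none of the 3 tools. None of 8 macrophage markers, led by Csf1r and Mrc1, or of 8 tested germ cell markers, led by Piwil2 and Mael, was called by edgeR or limma-voom (DESeq2 called 1 germ cell marker lower; at an unadjusted p under 0.05, 1 macrophage marker was higher and 2 germ cell markers lower). The Des call was lost without cKO library 1 (adjusted p = 0.055), WT library 1 (0.152), WT library 2 (0.0809) or WT library 3 (0.114). Des was also not called with limma-trend on log2(FPKM + 0.1) or log2(FPKM + 1) (adjusted p = 0.0714 and 0.0721). The Kdr and Ptch1 calls were lost without cKO library 3 (adjusted p = 0.0977 and 0.0701) or WT library 3 (0.104 and 0.0607), that of Kdr also without WT library 1 (0.0963), that of Ptch1 also without WT library 2 (0.0522), and that of Emx2 without WT library 3 (0.0576). The part of all these cell types in the receptor values was not tested.

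**Figure D4:**
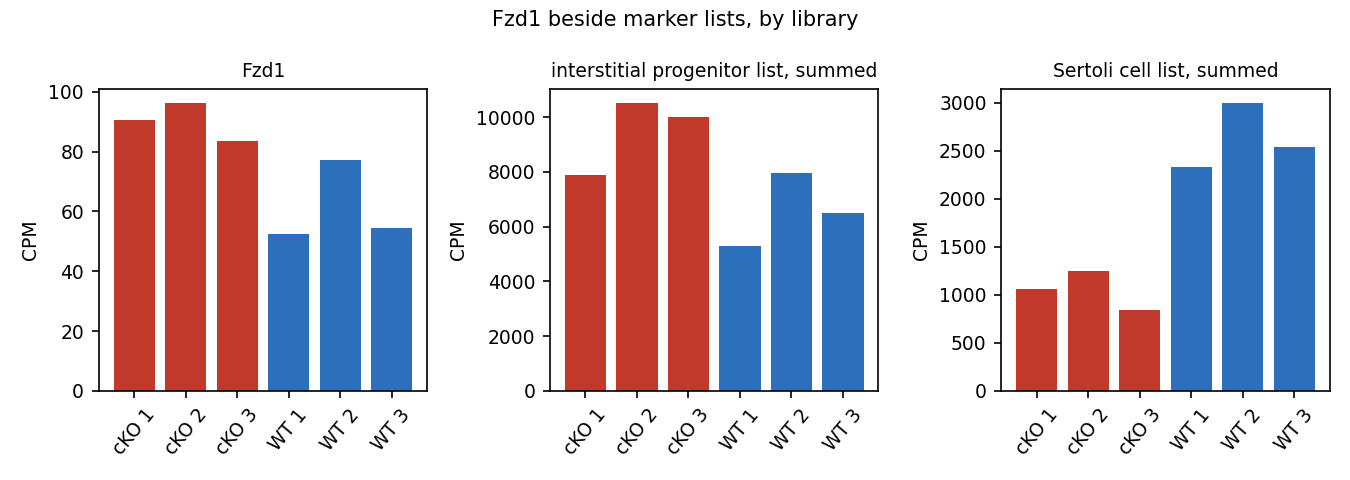
CPM of Fzd1 and of the summed interstitial progenitor and Sertoli cell marker lists in the 3 cKO and the 3 WT libraries (bars). Fzd1 and the interstitial sum are highest in library 2 of each group, but in cKO Fzd1 is lowest in library 3 and the interstitial sum in library 1. The Sertoli sum is 841 to 1243 CPM in cKO and 2328 to 2991 CPM in WT.

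The transcripts most like Fzd1 were Pgm5, Nfatc4 and Nenf. Likeness was the root-mean-square difference between gene-centred log2 CPM values over the 6 libraries, among 13402 candidates averaging 2 CPM or more, and came to 0.0622, 0.0623 and 0.0702. Nfatc4, a calcium-regulated transcription factor gene, had 121 ± 4.03 CPM in cKO and 78.8 ± 14.7 CPM in WT (SD, n = 3 each), and Nenf, which encodes a secreted neurotrophic protein, had 82.8 ± 4.58 CPM in cKO, against 53.6 ± 10.5 CPM in WT. Both were called higher by edgeR (adjusted p = 0.037 and 0.0432), while Pgm5 was not (adjusted p = 0.185). Both calls were lost without cKO library 2, cKO library 3, WT library 1 or WT library 3, at adjusted p from 0.0502 to 0.201 for Nfatc4 and from 0.0625 to 0.233 for Nenf. Neither gene was called with limma-trend on log2(FPKM + 0.1) (adjusted p = 0.0751 and 0.0932) or log2(FPKM + 1) (0.0705 and 0.0879). Being chosen for likeness to Fzd1, these 3 genes add no evidence on it.

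Receptor partners showed 1 called gene. Of 12 tested Wnt receptors and co-receptors outside the 10, 1 was higher and none lower by edgeR (2 higher and 1 lower by DESeq2, 1 higher by limma-voom; 5 and 1 at unadjusted p below 0.05), with a median log2 fold change of 0.30. That gene was Tspan12, a tetraspanin that joins FZD4 and LRP5 in Norrin signalling. It had 26.4, 19.2 and 23.9 CPM in cKO against 11.3, 10.9 and 11.6 CPM in WT, groups far apart (estimate 1.04 with SE 0.175, edgeR adjusted p = 0.00762), and it was called in all 17 alternative fits. Adgra2, which with Reck enables WNT7 signalling in brain vessels, stood at 250 ± 23.2 CPM in cKO, against 171 ± 25.7 CPM in WT (0.55, edgeR adjusted p = 0.0593) and was called higher by DESeq2 (adjusted p = 0.00742). Fzd9, a frizzled gene of low level here, had 2.50, 4.11 and 3.16 CPM in cKO against 6.71, 6.64 and 6.50 CPM in WT, groups that did not overlap, and it was not called by edgeR (-1.02, SE 0.280, adjusted p = 0.0826) but was called lower by DESeq2 (adjusted p = 0.034). Fzd10 was likewise rare and varied among the cKO libraries (8.48, 3.78 and 5.22 CPM in cKO against 3.10, 4.45 and 4.30 CPM in WT; edgeR adjusted p = 0.471).

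Several ligands and secreted inhibitors were called by edgeR, all of them higher in cKO. Of the 3 tools DESeq2 alone called an inhibitor lower, Sfrp4 (log2 fold change -1.12, adjusted p = 0.0406). Of 16 tested ligand and secretion genes 5 were higher and none lower by edgeR (6 and none by DESeq2, 5 and none by limma-voom, 8 and none at unadjusted p below 0.05; median 0.34). Among those 5, the call of Wnt5b (log2 fold change 0.90, edgeR adjusted p = 0.0124) was lost without WT library 1 (0.0755) or WT library 3 (0.084). The other edgeR calls of that list held in all 17 alternative fits. Wnt11, a ligand of noncanonical signalling, had 33.5 ± 1.89 CPM in cKO against 7.95 ± 0.618 CPM in WT, Wnt4, needed for ovary formation, 238 ± 15.6 CPM in cKO, against 72.7 ± 14.4 CPM in WT, and Wnt7b 9.18 ± 4.09 CPM in cKO, against 0.997 ± 0.315 CPM in WT (edgeR adjusted p = 7.27e-05, 0.00015 and 0.00126). Of 12 tested secreted inhibitors and their partners 3 were higher and none lower by edgeR (5 and 1 by DESeq2, 3 and none by limma-voom, 7 and 1 at unadjusted p below 0.05; median 0.52). They were Notum, an enzyme that strips the lipid by which Wnt proteins bind the frizzled domain (log2 fold change 3.73), Apcdd1, a membrane inhibitor that binds Wnt and LRP5 (1.96), and Wif1, which binds Wnt proteins (2.96).

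Genes that set receptor turnover were called in 1 case. Rnf43, a ubiquitin ligase that clears frizzled and LRP6 proteins from the membrane, averaged 22.6 ± 6.76 CPM in cKO against 3.08 ± 0.493 CPM in WT (edgeR adjusted p = 0.000189, log2 fold change 2.87). It was the single call by edgeR, DESeq2 and limma-voom among 9 tested turnover genes, none of them lower (1 higher, 1 lower at unadjusted p below 0.05; median 0.05). Its partner in that role, Znrf3, had 49.0 CPM in cKO and 47.4 CPM in WT (edgeR adjusted p = 0.905), and the R-spondin gene Rspo4 (-0.62) and the R-spondin receptor gene Lgr6 (-0.55) had the next smallest p-values without being called by any of the 3 tools. Transcript counts do not measure receptor protein at the membrane. Among 8 genes of receptor folding and trafficking there was no call with edgeR, with DESeq2 or with limma-voom, and none had an unadjusted p under 0.05 (median 0.07). The chaperone of LRP5 and LRP6, listed as Mesdc2, had 143 CPM in cKO and 153 CPM in WT (edgeR adjusted p = 0.767), and Tmem59, Atp6ap2 and Tmem198 had the smallest p-values, at log2 fold changes of 0.14, 0.20 and 0.23.

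Of 17 kinases and scaffolds that act on the receptors, Axin2, a negative regulator and well-known Wnt target, was the single call by edgeR, DESeq2 and limma-voom, with 125 ± 15.2 CPM in cKO against 45.0 ± 0.829 CPM in WT (edgeR adjusted p = 0.000127, log2 fold change 1.47). None was lower (2 higher, 1 lower at unadjusted p below 0.05; median 0.04). Csnk1g1, a membrane-bound CK1 that phosphorylates LRP6, had 97.4 ± 9.61 CPM in cKO and 128 ± 8.95 CPM in WT (-0.39, edgeR adjusted p = 0.123), and the receptor kinase gene Grk5 stood at 0.33 (edgeR adjusted p = 0.296).

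Of 12 tested planar cell polarity genes, the partners of FZD3 and FZD6, 1 was lower and none higher by edgeR and by limma-voom (2 lower and none higher by DESeq2; 1 higher, 3 lower at unadjusted p below 0.05), and the median log2 fold change was -0.20, with 2 of 12 estimates positive. Prickle1, a cytoplasmic polarity protein gene, had 68.4, 66.3 and 73.6 CPM in cKO against 92.6, 98.0 and 101 CPM in WT, groups that did not overlap (-0.49, SE 0.111, edgeR adjusted p = 0.0389). That call was kept in 9 of the 17 other fits. It was lost with any single library left out, with adjusted p from 0.0622 without cKO library 1 to 0.199 without WT library 3. It was also lost with limma-trend on log2(FPKM + 0.1) or log2(FPKM + 1) (adjusted p = 0.0604 and 0.0572). The adhesion receptor genes Celsr1 (56.8 ± 2.001 CPM in cKO against 82.8 ± 15.2 CPM in WT) and Celsr2 (32.8 ± 3.61 CPM in cKO, 45.3 ± 4.58 CPM in WT) were not called by edgeR (adjusted p = 0.0778 and 0.119), while DESeq2 called Celsr1 lower (adjusted p = 0.0282).

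Among 11 relatives of LRP5 and LRP6 in the LDL receptor family, 1 was higher and none lower by edgeR, DESeq2 and limma-voom (2 higher, none lower at unadjusted p below 0.05; median 0.01). Sorl1, a sorting receptor, had 77.0, 85.7 and 74.5 CPM in cKO against 43.6, 52.7 and 51.1 CPM in WT (estimate 0.69, SE 0.127, with an edgeR adjusted p of 0.0125). Its call held in 13 of 17 alternative fits, but not without WT library 1 (adjusted p = 0.0794) or WT library 3 (adjusted p = 0.0607). Nor did it hold with limma-trend on log2(FPKM + 0.1) or log2(FPKM + 1) (adjusted p = 0.0698 and 0.074). Lrp3 (0.41, edgeR adjusted p = 0.102) and Lrp8 (-0.56, edgeR adjusted p = 0.34) followed without being called by any of the 3 tools.

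**Figure D5:**
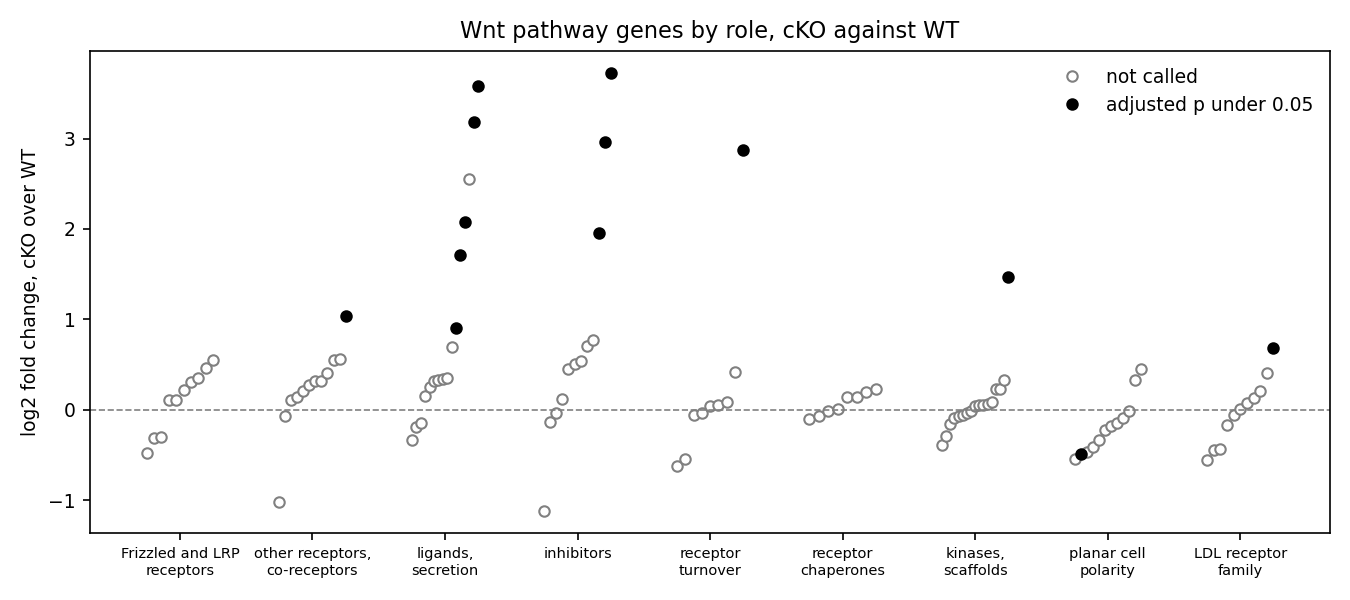
Log2 fold change, cKO over WT, of every tested gene in the receptor set and in 8 lists of related genes; filled points passed an adjusted p under 0.05 in edgeR's fit over all genes. The 10 Frizzled and LRP receptors lie between -0.48 and 0.55 with no filled point, while the other-receptor, ligand, inhibitor, turnover and scaffold lists hold filled points above 1.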

How the data were processed

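Polyadenylated RNA of whole testes was sequenced on an Illumina NovaSeq, per the labels' protocols. Per the submitters' processing notes, HISAT2 2.0.5 and GRCm38 were used. How reads were counted, with which strand setting and annotation, is not given in the sources used, and the gene identifiers are those of C57BL/6NJ. The authors deposited raw counts per gene and FPKM per library; in every library FPKM equalled the count over gene length and a denominator of 0.968 to 1.05 times the total count. The tables used here held 0 rows on chromosome Y.

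Counts were fitted with edgeR 4.0.16 in R 4.3.3 (quasi-likelihood test, filterByExpr, TMM, group as the sole term). P-values were adjusted by Benjamini-Hochberg across the 18383 genes tested, with a threshold of 0.05 and a biological coefficient of variation of 19.7%. Standard errors are the log2 fold change over the square root of F, and intervals are 95%. CPM used library totals of 15092619 to 17431546 multiplied by TMM factors. Tested genes had median counts between 282 and 329 by library. The procedure was tested on simulated data. Libraries of 1 group differed beyond sampling noise (chi-square over its degrees of freedom, 12.2 to 37.4), so each counted as 1 replicate. The series design counts 3 mice a group; litters are not given, so p-values measure the spread between these animals.

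Members and gene lists were chosen with earlier results of these data known; 189 of 191 list symbols were matched, 1 through a RefSeq synonym. Named are the members, the 3 genes of each pathway list with the smallest p, other edgeR-called genes of pathway lists of up to 13 symbols, the 2 most abundant markers of each cell type by mean CPM, Csnk1a1 and the 3 genes most like Fzd1. Fzd10, Znrf3, Mesdc2, Sfrp4, Wnt5b, Sox9, Dmrt1, Aard, Fdx1, Des, Foxl2 and Runx1 were added after their values were seen. The 17 alternatives used other scaling, DESeq2 1.42.0, limma 3.58.1 (voom, and trend on log2(FPKM + 0.1) and log2(FPKM + 1)), other filters, protein-coding genes, the replicate number as a block, and each library left out.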

Additional observations from a re-analysis of the deposited data

How the results depend on the processing

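The count of receptor genes called higher was 0 and became 1, always Fzd1, with the DESeq2 Wald test, with no low-count filter (adjusted p = 0.0059) and with the replicate block; with single libraries left out it ran from 0 to 1, the call appearing without WT library 2. No receptor gene was called lower in any of the 17 alternatives. The direction of each member was kept in all 17, apart from Fzd4, whose estimate ran from -0.0808 to 0.222 with 1 library left out and turned negative without cKO library 1. Over all tested genes, 276 were called higher and 339 lower. DESeq2 called 498 and 539, no low-count filter 613 and 651, and limma-trend on log2(FPKM + 0.1) 149 and 223, while log2(FPKM + 1) gave 156 higher. With 1 library left out the calls ran from 105 to 342 higher and 167 to 399 lower, the lowest without WT libraries 1 or 3 (higher) and without WT library 3 (lower); leaving out cKO library 3 or WT library 2 also moved them by over 1.5 times. The cause of these shifts was not tested. Other scalings moved the median over all genes by less than 0.1 on the log2 scale.

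The replicate number as a block gave Fzd1 a log2 fold change of 0.57 (edgeR adjusted p = 0.0432). Over all genes that fit called 324 higher and 372 lower, against 276 and 339 without the block. The labels do not say that equal numbers share a litter or day, so the samples are taken to share a number only. The deviations of same-numbered libraries correlated across genes at 0.017, 0.184 and 0.032. While cKO library 1 correlated best with WT library 3 (0.157), cKO libraries 2 and 3 each correlated best with the WT library of the same number. Whether the libraries are paired was not tested.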
